A study of Mus musculus with 12 samples.

Results

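The genes described here are 9 genes of the p53 response and of mitochondrial apoptosis, chosen by symbol: Trp53, Mdm2, Cdkn1a, Bax, Bbc3, Pmaip1, Bcl2l11, Bcl2l1 and Mcl1. Each symbol matched 1 row of a table of 31208 genes, so 9 of 9 genes were found, and all 9 passed the filter on low counts in every comparison. Long-read RNA-seq had been run on brain tissue of 12 C57BL/6 mice aged 8 weeks, with 4 mice in each of 3 groups. The groups were sham mice, mice at 6 h after ischemia that had been preconditioned with vehicle, and mice at 6 h after ischemia that had been preconditioned with lactate. Ischemia was made by blocking the left middle cerebral artery with a filament in male mice. Per the study's methods, 2 µL of D-lactate in saline, or of saline alone, was injected into a cerebral ventricle 24 h before surgery, whereas the labels say only lactate. No injection is named for the sham mice, so that occlusion and injection cannot be told apart in a comparison with sham. The labels give each library as a replicate and do not say more about how the mice were housed or handled. P values therefore rest on the spread between the libraries of the 2 groups compared.

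p53, the protein of Trp53, is a transcription factor that is kept low by Mdm2, a ubiquitin ligase that marks it for degradation and is itself a p53 target. When p53 is stabilized it can induce Cdkn1a, whose protein p21 inhibits cyclin-dependent kinases, and genes of the Bcl-2 family that act at the outer mitochondrial membrane. In that family Bax forms pores, the BH3-only proteins Puma (Bbc3), Noxa (Pmaip1) and Bim (Bcl2l11) promote its activation or block its inhibitors, and Bcl-xL (Bcl2l1) and Mcl-1 hold Bax and the BH3-only proteins in check. In ischemic brain these genes are studied because p53 and BH3-only proteins can take part in the death of neurons. Most regulation of p53 acts on the protein, which RNA levels do not measure.

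The stretches upstream of the genes that hold a p53 half-site are shown first, because p53 binds pairs of such 10-base elements in its target genes. The RefSeq promoter windows (GRCm38.p6, from 250 bases before to 50 bases after each annotated start) gave 14 windows for 8 of the 9 genes, and no entry was matched for Pmaip1. The p53 half-site was searched by its usual consensus, with 3 purines, a C, A or T at both middle positions, a G and 3 pyrimidines, which covers both strands at once. It was found in 4 of 14 windows, 1 each of Cdkn1a, Mdm2, Bax and Trp53, and in 8.36% of all 32851 windows, where windows of 1 gene can overlap. Capitals mark the half-sites, each stretch is written 5′ to 3′ on the strand of its gene, and only bases before the start are printed.
Cdkn1a: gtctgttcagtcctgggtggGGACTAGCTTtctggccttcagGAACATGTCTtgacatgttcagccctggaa
Mdm2: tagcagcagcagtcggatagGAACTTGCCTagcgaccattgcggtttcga
Bax: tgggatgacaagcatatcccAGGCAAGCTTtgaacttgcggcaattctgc
Trp53: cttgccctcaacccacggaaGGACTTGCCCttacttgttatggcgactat
The Cdkn1a stretch lies at chr17:29090886-29090957 on the plus strand, before the first of 2 annotated starts that are 2790 bases apart, and it is the only one shown with 2 half-sites. The Mdm2 stretch lies at chr10:117710915-117710964 on the minus strand, the Bax stretch at chr7:45467070-45467119 on the minus strand and the Trp53 stretch at chr11:69580264-69580313 on the plus strand. A match of letters is a description and not a measured binding site. Among other motifs searched on both strands, GGGCGG (Sp1) was in 9 of 14 windows and 35.7% of all windows, CCAAT in 5 and 37.4%, TATAAA in 1 and 13.6%, and TGANTCA (AP-1) in 0 and 7.81%.

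The Bcl-2 family proteins share the BH3 helix, through which they bind each other. The coding sequence of its core is shown for 5 of the genes, because this shared element makes them 1 family, whose members are described gene by gene below. Pmaip1, whose protein is also BH3-only, was not searched. Capitals mark the 18 bases that code for leucine, any 3 residues, glycine or alanine, and aspartate, a pattern found once in each of the 5 proteins, with glycine in 4 of 5 and alanine in Bbc3. The sequences were read from GENCODE M21 transcripts on GRCm38, 5′ to 3′ on the coding strand, with 24 bases on either side.
Bcl2l11: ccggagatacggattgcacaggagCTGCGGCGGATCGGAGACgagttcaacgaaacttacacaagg
Bbc3: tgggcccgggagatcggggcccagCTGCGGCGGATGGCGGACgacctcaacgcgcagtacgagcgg
Bax: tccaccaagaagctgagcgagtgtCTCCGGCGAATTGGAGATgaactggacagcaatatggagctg
Bcl2l1: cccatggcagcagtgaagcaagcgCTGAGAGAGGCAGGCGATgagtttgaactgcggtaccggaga
Mcl1: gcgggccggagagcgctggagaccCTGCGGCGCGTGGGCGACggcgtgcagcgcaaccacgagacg
These stretches lie in coding exons, at chr2:128147126-128147191 on the plus strand (exon 3 of 4) for Bcl2l11, chr7:16313749-16313814 on the plus strand (exon 3 of 4) for Bbc3, chr7:45465982-45466047 on the minus strand (exon 3 of 6) for Bax, chr2:152829682-152829747 on the minus strand (exon 2 of 3) for Bcl2l1 and chr3:95659412-95659477 on the plus strand (exon 1 of 3) for Mcl1.

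Total counts per mouse ranged from 6815920 to 10677224, and 3 counts, taken as the floor of detection, were worth 0.281 to 0.440 CPM, the count of a gene scaled by the total of its mouse. Floors cover counting error only. Markers of neurons, astrocytes, oligodendrocytes and microglia were above the floor in all 12 mice, as were 5 of 6 endothelial markers in sham mice and 6 of 6 in ischemic mice. Some mice stood apart in the whole transcriptome. In a principal component analysis of 18134 genes, vehicle mouse 1 lay at -57.2 on the second component, where the other vehicle mice lay between 7.94 and 14.6, and lactate mouse 2 lay at 51.9 on the first component, where the other lactate mice lay between 11.8 and 22.3. Vehicle mouse 2 had a summed level of choroid plexus markers of 1841 CPM, against 1.36 to 5.41 CPM in sham mice, 4.26 to 14.7 CPM in the other vehicle mice and 10.3 to 19.3 CPM in lactate mice, which did not overlap sham. Results that rest on these mice are given below with and without them. Other marker lists also moved with the groups: the 6 neutrophil markers summed to 3.12 to 5.41 CPM in sham mice, with Ly6g at 0 in all 4, to 11.9 to 74.9 CPM with vehicle and to 19.5 to 42.5 CPM with lactate. The 5 hemoglobin markers summed to 560 to 633 CPM in sham and to 333 to 500.4 CPM in ischemic mice, and the 6 microglial markers to 232 to 270 CPM in sham, 169 to 230 CPM with vehicle and 279 to 303 CPM with lactate. The 7 neuronal markers summed to 4115 to 4268 CPM in sham, 3688 to 4055 CPM with lactate and 3358 to 3632 CPM in 3 of 4 vehicle mice, with 5299 CPM in vehicle mouse 1. The 6 striatal neuron markers summed to 288 to 434 CPM in sham, 150.2 to 489 CPM with vehicle and 473 to 613 CPM with lactate, and the 6 endothelial markers to 152 to 158 CPM, 136 to 185 CPM and 174 to 219 CPM. The part of these cells in the values of the 9 genes was not tested. In bulk tissue, fewer cells of a type and less RNA per cell cannot be told apart.

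Compared with sham, ischemia with vehicle gave 1 of 9 genes that passed the test, Cdkn1a, which was 5.74-fold higher. A gene was called at a Benjamini-Hochberg adjusted P value below 0.05 in edgeR's quasi-likelihood test over all genes tested. Of the 17019 genes tested, 1.29% were called higher and 0.182% lower, and 0 of 9 genes were called lower. At a P value below 0.05 and a change of 1.5-fold or more, cutoffs that the study names and that were applied here to unadjusted P values, 2 of 9 genes were higher, Cdkn1a and Pmaip1, and 0 of 9 lower, where 6.5% of all genes were higher and 3.01% lower. At an unadjusted P value below 0.05 and any fold change there were 5 of 9, beside 13.8% of all genes. These were Cdkn1a, Pmaip1, Bcl2l1 and Mcl1 above sham and Trp53 below. In 3 of 9 genes the CPM of the 4 vehicle mice did not overlap that of the 4 sham mice (Cdkn1a and Pmaip1 above, Trp53 below), as in 9.03% of all genes. The median log2 fold change of the 9 genes was 0.375, with 7 of 9 above 0, beside a median of 0.00307 over all genes.

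Compared with sham, ischemia with lactate gave 3 of 9 genes that passed the test, and all 3 were higher. Cdkn1a was 5.83-fold, Pmaip1 2.21-fold and Bcl2l1 1.48-fold higher. Pmaip1 passed the filter through the lactate mice, so its call is not independent of the filter, which leaves 2 other calls. Of the 17262 genes tested, 8.76% were called higher and 3.55% lower, and 0 of 9 genes were called lower. At the unadjusted limits, 2 of 9 genes were higher (Cdkn1a and Pmaip1) and 1 was lower (Bbc3), where 11.9% of all genes were higher and 5.65% lower. Bcl2l1 was left out there because its change was below 1.5-fold. At an unadjusted P value below 0.05 and any fold change there were 4 of 9, beside 27.1% of all genes. These were Cdkn1a, Pmaip1 and Bcl2l1 above sham and Bbc3 below. The same 3 genes had levels that did not overlap between the groups, as in 19.1% of all genes. The median log2 fold change of the 9 genes was 0.338, with 6 of 9 above 0, beside -0.0276 over all genes. The 4 sham mice served in both comparisons, whose values are therefore not independent of each other.

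Between ischemia with lactate and ischemia with vehicle, 0 of 9 genes passed the test in edgeR, and the counts were also 0 in DESeq2, in limma and at an unadjusted P value below 0.05, a limit met by 8.84% of all genes. Of the 17419 genes tested, 0% were called higher (0 genes) and 0.00574% lower (1 gene), while 1540 genes had an unadjusted P value below 0.05. At the same unadjusted limits 0 of 9 genes were higher or lower, where 3.76% of all genes were higher and 2.47% lower. In 0 of 9 genes were the levels of the 2 groups without overlap, as in 4.81% of all genes. The median log2 fold change of the 9 genes was -0.0309, with 4 of 9 above 0, beside -0.0292 over all genes.

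**Figure D1:**
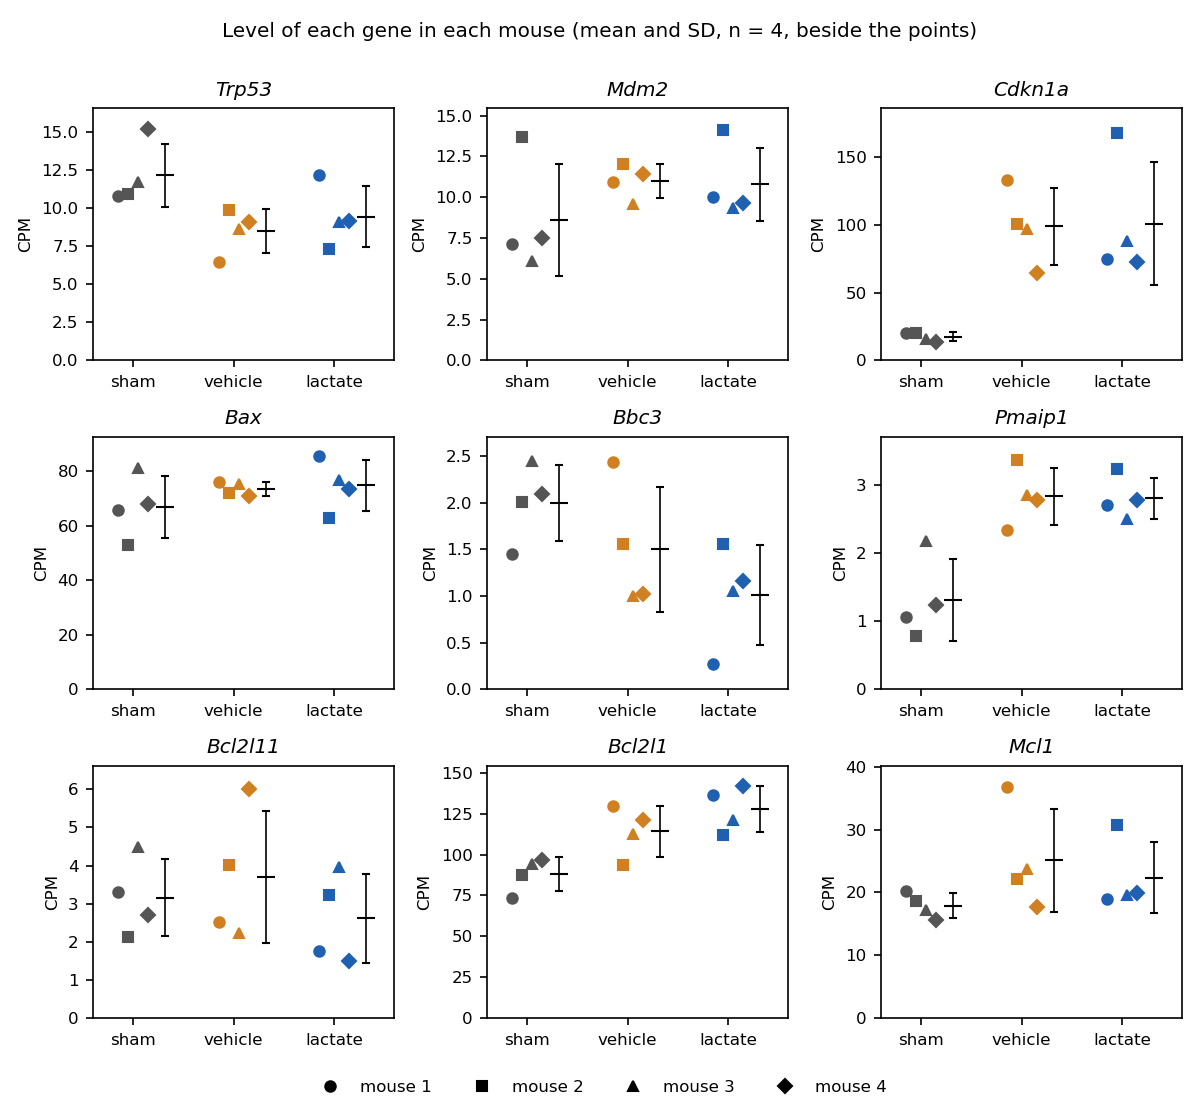
CPM (linear axis from 0) of each of the 9 genes in each of the 12 mice, with 1 symbol for each mouse number and the mean and SD of the 4 mice beside the points. Cdkn1a sits between 13.9 and 20.5 CPM in sham mice and between 64.1 and 168 CPM in ischemic mice, whereas the groups overlap for Mdm2, Bax, Bbc3, Bcl2l11 and Mcl1.

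Trp53, on chromosome 11 (69580359 to 69591873, plus strand), had a lower mean level in ischemic mice, without passing the test. Sham mice had 10.8, 10.9, 11.7 and 15.2 CPM, vehicle mice 6.46, 9.84, 8.59 and 9.10 CPM, and lactate mice 12.2, 7.30, 9.10 and 9.16 CPM. All 4 vehicle mice lay below all 4 sham mice, whereas lactate mouse 1 lay above 3 of 4 sham mice. The group means were 12.1 ± 2.05 CPM in sham, 8.50 ± 1.45 CPM with vehicle and 9.43 ± 2.02 CPM with lactate (SD, n = 4). The log2 fold change against sham was -0.49 ± 0.21 with vehicle (SE, edgeR adjusted P = 0.326) and -0.34 ± 0.20 with lactate (edgeR adjusted P = 0.302). Sham mouse 4 was the highest of the 12 mice, and without it the values were -0.35 and -0.21.

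Mdm2, on chromosome 10 (117688875 to 117710758, minus strand), had 7.12, 13.7, 6.11 and 7.52 CPM in sham mice, 10.96, 12.04, 9.59 and 11.4 CPM in vehicle mice and 10.01, 14.1, 9.36 and 9.62 CPM in lactate mice. Of the sham mice, 3 of 4 lay below all ischemic mice and sham mouse 2 lay within their range. The log2 fold change against sham was 0.37 ± 0.26 with vehicle (edgeR adjusted P = 0.572) and 0.34 ± 0.26 with lactate (edgeR adjusted P = 0.447), within the spread between mice. The size of these changes depended on single mice. Without sham mouse 2 the values were 0.72 and 0.68, and without lactate mouse 2 the value with lactate was 0.19. None of these was called, with an edgeR adjusted P no lower than 0.0633 in any fit that left out 1 mouse. Mdm2 therefore had no call in any of these fits, and its interval against sham reached 0.94 with vehicle and 0.90 with lactate.

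Cdkn1a, on chromosome 17 (29090976 to 29100727, plus strand), encodes p21. Sham mice had 20.0, 20.5, 16.02 and 13.9 CPM. Vehicle mice had 133, 101, 97.1 and 64.1 CPM, and lactate mice had 74.8, 168, 88.3 and 72.6 CPM. The lowest ischemic mouse (64.1 CPM) lay above the highest sham mouse (20.5 CPM), and the vehicle and lactate mice overlapped. Against sham the log2 fold change was 2.52 ± 0.23 with vehicle (SE, edgeR adjusted P = 4.03e-05) and 2.54 ± 0.26 with lactate (edgeR adjusted P = 4.63e-05), with 95% intervals of 4.10-fold to 8.05-fold and 3.97-fold to 8.56-fold. By P value it ranked 25 of 17019 genes with vehicle and 60 of 17262 with lactate. It was called in every fit run, including those without vehicle mouse 1 (2.34) and without lactate mouse 2 (2.19).

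The spread of Cdkn1a among ischemic mice was wide. The means were 98.8 ± 28.2 CPM with vehicle and 101 ± 45.1 CPM with lactate (SD, n = 4), beside 17.6 ± 3.18 CPM in sham. Lactate mouse 2 held the highest level of all 12 mice, at 168 CPM from 1400 counts, and the other 3 lactate mice lay between 72.6 and 88.3 CPM. Lactate against vehicle gave a log2 fold change of 0.003 with a 95% interval of -0.61 to 0.62, which covers changes from 0.654-fold to 1.54-fold. This value depended on single mice, at -0.35 without lactate mouse 2 and 0.19 without vehicle mouse 1, and neither was called. An overlapping locus of unknown coding potential on the opposite strand is annotated at Cdkn1a, and whether the counting used strand is not given in the sources used here.

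**Figure D2:**
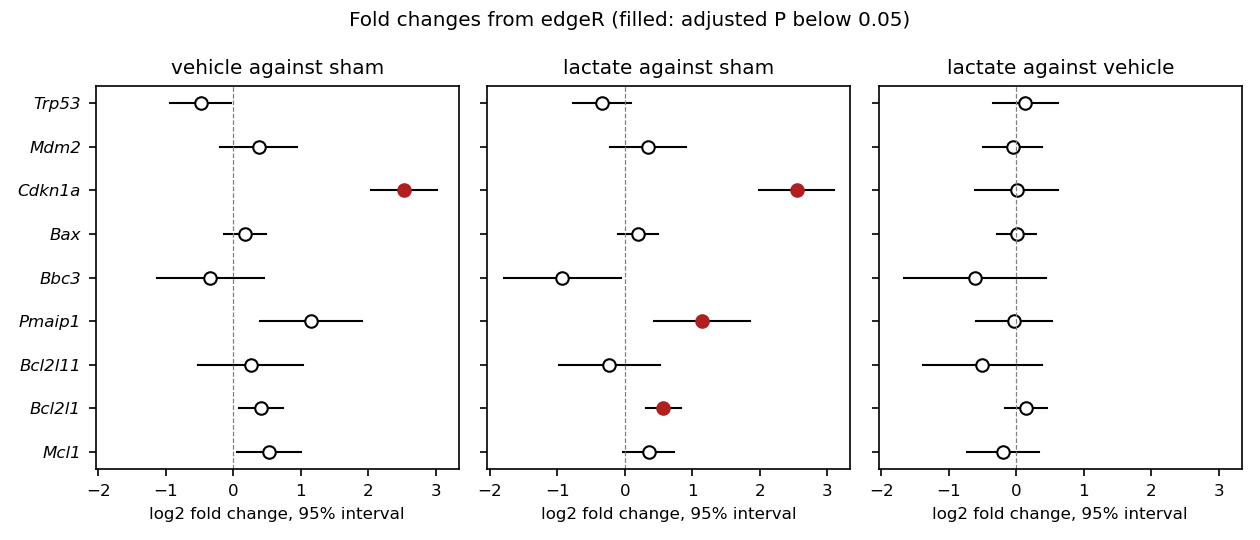
Log2 fold change of each gene from edgeR with its 95% interval in the 3 comparisons, filled where the Benjamini-Hochberg adjusted P value was below 0.05. Cdkn1a is filled in both comparisons with sham, Pmaip1 and Bcl2l1 with lactate against sham, and every interval of lactate against vehicle includes 0.

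Pmaip1 encodes Noxa, a BH3-only protein that chiefly binds Mcl-1, and lies on chromosome 18 (66458533 to 66465565, plus strand). Its level was low, with 7 to 27 counts a mouse, all above the floor of 3 counts. Sham mice had 1.05, 0.780, 2.17 and 1.23 CPM, vehicle mice 2.34, 3.37, 2.86 and 2.79 CPM, and lactate mice 2.70, 3.23, 2.51 and 2.78 CPM. All 8 ischemic mice lay above all 4 sham mice, and sham mouse 3 came close to vehicle mouse 1. Against sham the log2 fold change was 1.14 ± 0.33 with lactate (edgeR adjusted P = 0.0378) and 1.15 ± 0.35 with vehicle, where it missed the threshold (edgeR adjusted P = 0.161). The sizes were close while the calls differed, and no difference between the 2 ischemic groups was detectable, with a log2 fold change of -0.03 and a 95% interval of 0.662-fold to 1.45-fold. The call with lactate was fragile: leaving out 1 mouse at a time kept it in 1 of 8 fits, without sham mouse 3, with edgeR adjusted P values from 0.0213 to 0.0942, while its size stayed between 0.96 and 1.48. Only 3 of 4 sham mice reached the filter's minimum of 1 CPM, so that Pmaip1 passed the filter through the ischemic mice, and with no filter the edgeR adjusted P value was 0.0531.

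Bbc3, on chromosome 7 (16308393 to 16318205, plus strand), encodes Puma, a BH3-only protein that binds all anti-apoptotic members and is named for its induction by p53. Sham mice had 1.45, 2.01, 2.44 and 2.10 CPM, vehicle mice 2.44, 1.55, 0.996 and 1.03 CPM, and lactate mice 0.270, 1.56, 1.05 and 1.16 CPM. Its means did not lie above sham in either ischemic group, at 1.503 ± 0.672 CPM with vehicle and 1.01 ± 0.539 CPM with lactate, beside 2.00 ± 0.412 CPM in sham (SD, n = 4). Against sham the log2 fold change was -0.34 ± 0.37 with vehicle (edgeR adjusted P = 0.744) and -0.93 ± 0.40 with lactate (edgeR adjusted P = 0.156), and neither was called. Lactate mouse 1 had 2 counts, under the floor of 3, and without it the value with lactate was -0.63. Without lactate mouse 2 the value with lactate was -1.20, also not called. Without vehicle mouse 1, the highest of the vehicle mice, the value with vehicle was -0.70. Lactate against vehicle gave 0.656-fold with an interval of 0.316-fold to 1.36-fold, which includes both no change and a level more than 2-fold lower. On the log2 scale this was -0.61, and it was -0.23 without vehicle mouse 1, -0.31 without lactate mouse 1 and -0.88 without lactate mouse 2.

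Bcl2l11, on chromosome 2 (128126038 to 128162547, plus strand), encodes Bim, a BH3-only protein induced by Foxo and Jun factors. Sham mice had 3.30, 2.12, 4.48 and 2.71 CPM, vehicle mice 2.53, 4.01, 2.24 and 6.02 CPM, and lactate mice 1.76, 3.23, 3.96 and 1.51 CPM. The 3 groups overlapped, and the highest vehicle mouse (41 counts) and the lowest vehicle mouse (18 counts) spanned most of the whole range. The log2 fold change against sham was 0.26 ± 0.36 with vehicle (edgeR adjusted P = 0.810) and -0.23 ± 0.35 with lactate (edgeR adjusted P = 0.724). Without vehicle mouse 4 the value with vehicle turned to -0.06, and without sham mouse 3 the value with lactate was -0.02. Lactate against vehicle gave -0.51 ± 0.40 (edgeR adjusted P = 0.744), within the spread between mice. It was -0.18 without vehicle mouse 4 and -0.77 without lactate mouse 3.

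Bax, the pore-forming effector on chromosome 7 (45461697 to 45466898, minus strand), was measured with 475 to 812 counts a mouse. Its mean level was 67.0 ± 11.5 CPM in sham, 73.6 ± 2.52 CPM with vehicle and 74.8 ± 9.40 CPM with lactate (SD, n = 4), and the ranges were 52.9 to 81.1, 70.9 to 76.0 and 63.0 to 85.7 CPM. Of the 8 ischemic mice, only lactate mouse 1 lay outside the range of the sham mice, above it. The log2 fold change against sham was 0.18 ± 0.14 with vehicle (edgeR adjusted P = 0.648) and 0.19 ± 0.14 with lactate (edgeR adjusted P = 0.396). The 95% intervals were 0.909-fold to 1.40-fold and 0.932-fold to 1.40-fold, so that these data leave room for a change of Bax RNA of up to 1.40-fold. A second gene model, Gm45808, overlaps Bax on the same strand and held at most 1 count in any mouse.

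Bcl2l1, on chromosome 2 (152780668 to 152831728, minus strand), encodes the anti-apoptotic Bcl-xL and, by alternative splicing, the pro-apoptotic Bcl-xS, which counts per gene do not separate. Sham mice had 73.5, 87.4, 94.1 and 96.7 CPM, vehicle mice 130, 93.5, 113 and 121 CPM, and lactate mice 136, 112, 121 and 142 CPM. All 4 lactate mice lay above all sham mice, whereas vehicle mouse 2 lay within the sham range. Against sham the log2 fold change was 0.57 ± 0.12 with lactate (edgeR adjusted P = 0.00963) and 0.41 ± 0.15 with vehicle (edgeR adjusted P = 0.247). The call with lactate held in 8 of 8 fits without 1 mouse (0.48 to 0.64), and without vehicle mouse 2 the value with vehicle was 0.50. Lactate against vehicle was 0.14 ± 0.14 (edgeR adjusted P = 0.803), with an interval of 0.890-fold to 1.36-fold, so no difference between the ischemic groups was detected, although the interval leaves room for one.

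Mcl1, on chromosome 3 (95658788 to 95663176, plus strand), encodes a short-lived anti-apoptotic protein. Sham mice had 20.2, 18.6, 17.2 and 15.5 CPM, vehicle mice 36.8, 22.1, 23.8 and 17.8 CPM, and lactate mice 18.9, 30.8, 19.6 and 19.9 CPM. In each ischemic group 1 mouse lay above the rest, and these were the same 2 mice that stood apart in the whole transcriptome. The log2 fold change against sham was 0.53 ± 0.22 with vehicle (edgeR adjusted P = 0.303) and 0.35 ± 0.18 with lactate (edgeR adjusted P = 0.222). Without vehicle mouse 1 the value with vehicle was 0.28, and without lactate mouse 2 the value with lactate was 0.16. The part of RNA quality or tissue composition of these mice in the level of Mcl1 was not tested.

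**Figure D3:**
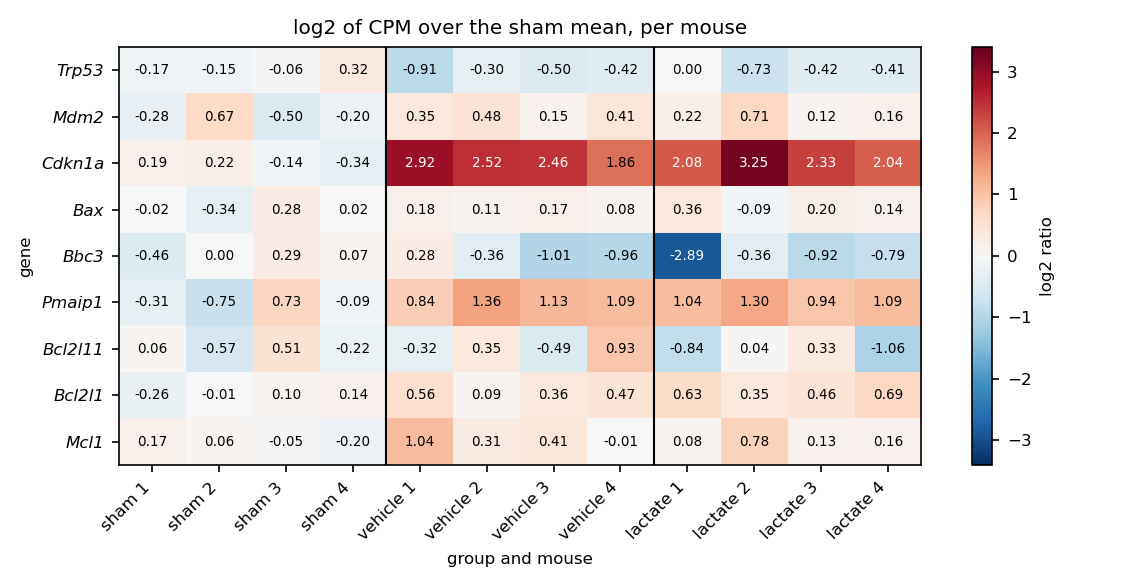
Heat map of the log2 ratio of each mouse's CPM to the mean of the 4 sham mice, for the 9 genes (rows) in the 12 mice (columns), with the value printed in each cell and red above and blue below sham. Cdkn1a is between 1.86 and 3.25 in all 8 ischemic mice and Pmaip1 between 0.84 and 1.36, whereas Bbc3 reaches -2.89 in lactate mouse 1, from 2 counts.

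The ratio between reads of 2 genes was also taken within each mouse. The ratio of Cdkn1a to Trp53 reads lay between 0.919 and 1.88 in sham, with a median of 1.61. With vehicle it lay between 7.05 and 20.6, with a median of 10.8, and with lactate between 6.14 and 22.9, with a median of 8.82, so that no ischemic mouse overlapped the sham mice. The ratio of Mdm2 to Trp53 reads had a median of 0.591 in sham, 1.24 with vehicle and 1.04 with lactate, and the ranges overlapped because sham mouse 2 had a ratio of 1.26. For the pore-forming Bax over the anti-apoptotic Bcl2l1, the ratio of reads ran from 0.606 to 0.898 in sham, 0.583 to 0.772 with vehicle and 0.518 to 0.636 with lactate. The Bax to Bcl2l1 ratio thus overlapped between the groups, with medians of 0.782, 0.628 and 0.596. The ratio of Bax to the other anti-apoptotic gene, Mcl1, also overlapped, with medians of 3.82 in sham, 3.21 with vehicle and 3.81 with lactate, and that of Bcl2l11 to Bcl2l1 had medians of 0.0365, 0.0314 and 0.0209. These ratios are descriptions of read numbers, with no correction for gene length and no test, and the level of 1 gene per cell cannot be read from them.

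The other genes of the pathways were taken from lists, and they were for the most part not called. Counts at an unadjusted P value below 0.05 are to be read beside the share of all genes at that limit, which was 13.8% with vehicle against sham, 27.1% with lactate against sham and 8.84% with lactate against vehicle. Of 30 other p53 targets, 24 were tested with vehicle against sham, and 2 rose, the death receptor gene Fas and Ddit4, an inhibitor of mTORC1 that hypoxia and glucocorticoids also induce. Fas was 0.748 ± 0.466 CPM in sham and 6.71 ± 2.11 CPM with vehicle, a log2 fold change of 3.16 ± 0.45 (edgeR adjusted P = 0.00274). Ddit4 was 37.7 ± 5.20 CPM in sham and 92.2 ± 13.2 CPM with vehicle, a log2 fold change of 1.32 ± 0.16 (edgeR adjusted P = 0.000662). Fas passed the filter on low counts through the vehicle mice, since 2 of 4 sham mice reached 1 CPM, so its call is not independent of the filter. The 2 of 24 genes called (8.33%) stand beside 1.29% of all genes. At an unadjusted P value below 0.05 there were 5 of 24, beside 13.8% of all genes. The median log2 fold change of the genes tested was 0.166, with 15 of 24 above 0, beside 0.00307 over all genes. Without vehicle mouse 1, 3 of these genes were called instead of 2, and without vehicle mouse 2 there were 2.

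With lactate against sham 25 of the other p53 targets were tested and 4 rose. Ddit4 reached 94.1 ± 4.20 CPM (log2 fold change 1.35 ± 0.12, edgeR adjusted P = 1.3e-05) and Fas 4.94 ± 0.991 CPM (2.73 ± 0.40, edgeR adjusted P = 0.00103). Sfn, which encodes the cell cycle protein 14-3-3 sigma, went from 0.565 ± 0.170 to 1.67 ± 0.539 CPM (1.56 ± 0.39, edgeR adjusted P = 0.0189). The fourth was the stress-induced Sesn1, named here after its values were seen, at 0.60 ± 0.18 (edgeR adjusted P = 0.0472). Fas and Sfn passed the filter through the lactate mice, since 2 and 0 of 4 sham mice reached 1 CPM, and 2 of the 4 calls, Ddit4 and Sesn1, did not depend on this. The 4 of 25 genes called (16%), of which 2 passed the filter through the lactate mice, stand beside 8.76% of all genes. At an unadjusted P value below 0.05 there were 5 of 25, a limit met by 27.1% of all genes. The median log2 fold change was 0.107, with 14 of 25 above 0, beside -0.0276 over all genes. Without lactate mouse 2, 3 of these genes were called higher and 1 lower, and DESeq2, limma and the exact test of edgeR called 4 higher and 1 lower. Btg2, an antiproliferative gene named here after its values were seen, was the one lower at the unadjusted limits, from 9.27 ± 3.597 to 4.40 ± 1.56 CPM (-1.05 ± 0.33, edgeR adjusted P = 0.0523). With lactate against vehicle 0 of 26 were called by edgeR, DESeq2 or limma, and 2 had an unadjusted P value below 0.05.

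With vehicle against sham the calls of each list are to be read beside 1.29% of all genes called higher and 0.182% lower, and with lactate against sham beside 8.76% and 3.55%. Of 17 genes that regulate p53, 0 of 12 tested were called with vehicle, 0 of 13 with lactate against sham and 0 of 13 with lactate against vehicle in edgeR's quasi-likelihood test. At an unadjusted P value below 0.05 there were 1, 2 and 1, and DESeq2 called 0, 1 and 0. Their median log2 fold changes were -0.0941, -0.0308 and 0.0105, with 4 of 12, 5 of 13 and 8 of 13 above 0. Of 15 other genes of the Bcl-2 family, 0 of 11 were called with vehicle, beside the 1.29% and 0.182% of all genes. There was 1 at an unadjusted P value below 0.05 and 0 in DESeq2. In edgeR there was 1 without vehicle mouse 1 and 0 without vehicle mouse 2. With lactate against sham 2 of 10 rose, both of the anti-apoptotic A1 family, Bcl2a1b (1.54 ± 0.29, edgeR adjusted P = 0.00529) and Bcl2a1d (1.63 ± 0.39, edgeR adjusted P = 0.0160). The 2 of 10 called (20%) stand beside 8.76% of all genes, and Bcl2a1d passed the filter through the lactate mice, since 1 of 4 sham mice reached 1 CPM. At an unadjusted P value below 0.05 there were 3 of 10, beside 27.1% of all genes. The A1 genes are near-identical copies, so that the share of reads given to each is uncertain. They are known from leukocytes as well, and the part of the neutrophil signal given above in this result was not tested. With lactate against vehicle 0 of 12 were called in edgeR, DESeq2 or limma, and 0 had an unadjusted P value below 0.05.

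Downstream of the mitochondria, 16 genes of the apoptosome, the caspases and their inhibitors were listed. With vehicle 0 of 15 were called in edgeR or DESeq2, where 1.29% of all genes were called higher and 0.182% lower, and 1 had an unadjusted P value below 0.05. The median log2 fold change was -0.0929 with vehicle and -0.178 with lactate against sham, with 6 of 15 above 0 in both. With lactate against sham 2 of 15 rose, Apaf1, the scaffold that activates caspase-9, and Birc3, an inhibitor of apoptosis induced by NF-kappa B. Apaf1 went from 45.03 ± 7.26 to 85.4 ± 16.2 CPM (0.96 ± 0.15, edgeR adjusted P = 0.00173), and vehicle mice had 72.1 ± 74.8 CPM, a spread as large as their mean. Birc3 went from 0.735 ± 0.275 to 2.61 ± 1.03 CPM (1.86 ± 0.40, edgeR adjusted P = 0.00996). Birc3 passed the filter through the lactate mice, since 0 of 4 sham mice reached 1 CPM, which leaves 1 call that did not depend on this, Apaf1. The 2 of 15 genes called (13.3%) were close to the 8.76% called higher over all genes. At an unadjusted P value below 0.05 there were 4 of 15, beside 27.1% of all genes. Without lactate mouse 2, 1 gene of this list was called. With lactate against vehicle 0 of 16 were called in edgeR, DESeq2 or limma, and 0 had an unadjusted P value below 0.05.

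Among 7 factors that can induce BH3-only genes, 0 of 6 tested were called with vehicle in edgeR's quasi-likelihood test, beside 1.29% of all genes called higher and 0.182% lower. At an unadjusted P value below 0.05 there were 2, and DESeq2 called 1. The fit without vehicle mouse 1 called 2, and that without vehicle mouse 2 called 0. All 6 had a log2 fold change above 0, with a median of 0.536, beside 0.00307 over all genes. The same list had a median of 0.258 with lactate against sham (5 of 6 above 0) and of -0.351 with lactate against vehicle (2 of 6 above 0). With lactate against sham 1 of 6 rose, Ddit3, the stress factor CHOP, from 49.3 ± 5.27 to 91.3 ± 13.9 CPM (0.92 ± 0.13, edgeR adjusted P = 0.00104), which is 16.7% of the genes tested beside 8.76% of all genes. Of 6 other inhibitors of cyclin-dependent kinases, 4 were tested, and 0 were called with vehicle, beside the same shares of all genes (1 at an unadjusted P value below 0.05, 0 in DESeq2). With lactate against sham 1 fell, Cdkn1c, from 6.67 ± 1.58 to 3.69 ± 0.737 CPM (-0.82 ± 0.24, edgeR adjusted P = 0.0422), beside 3.55% of all genes called lower, and 0 were called without lactate mouse 2. Cdkn1b, which encodes p27 and is named here after its values were seen, was higher at the unadjusted limits in both comparisons with sham, at 0.66 ± 0.21 with vehicle (edgeR adjusted P = 0.186) and 0.64 ± 0.25 with lactate (edgeR adjusted P = 0.121), without being called. With lactate against sham, 1 of the 6 factors and 2 of the 4 inhibitors had an unadjusted P value below 0.05, beside 27.1% of all genes. With lactate against vehicle 0 genes of either list were called in edgeR, DESeq2 or limma, and 1 of each had an unadjusted P value below 0.05.

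**Figure D4:**
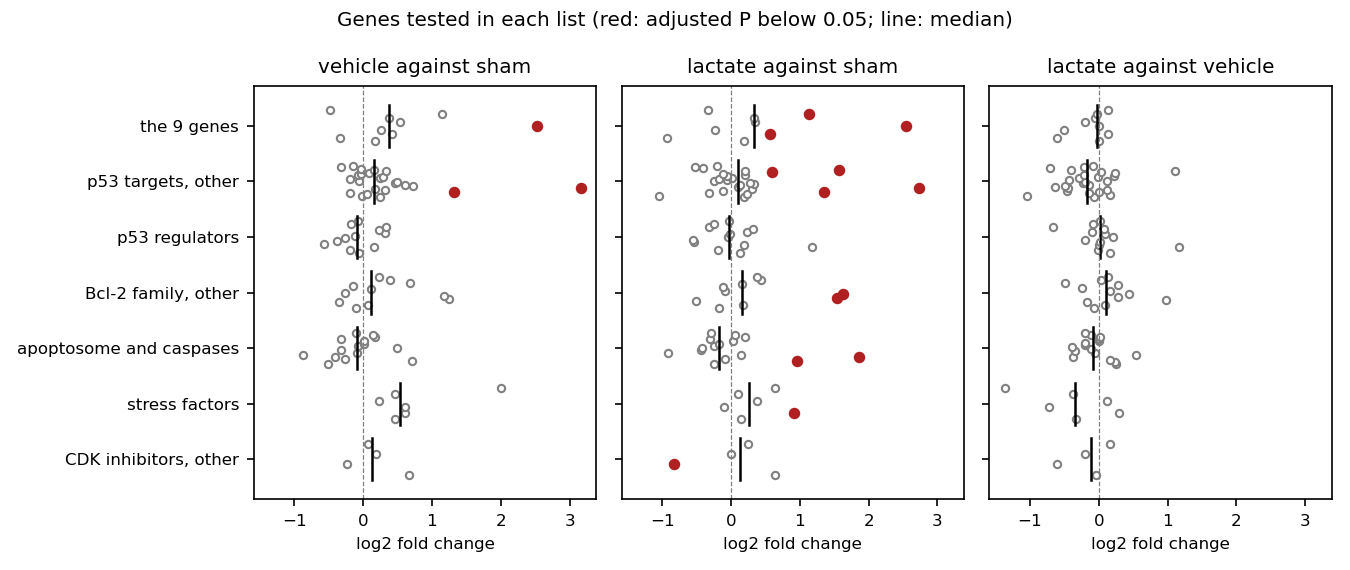
Log2 fold changes from edgeR of the 9 genes and of every tested gene of the 6 pathway lists in the 3 comparisons, each point a gene, red where the adjusted P value was below 0.05, with a line at the median of each list. Most points lie near 0, and 0 of the points are red with lactate against vehicle.

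The genes whose levels followed each of the 9 most closely over the 12 mice were found by Pearson's correlation of log2(CPM + 1) among 9572 or 9573 other genes (depending on the gene compared) with a mean of at least 5 CPM. These values are descriptions over mice of 3 groups, which share libraries and the difference between sham and ischemia. Clic4 (r = 0.942), Lcn2 (0.933) and Ociad2 (0.93) were most like Cdkn1a. Socs3 (0.931) and Hspa5 (0.918) led for Pmaip1, Lrg1 (0.942) and Selenos (0.935) for Bcl2l1, and Eif3b (0.953) for Mcl1. For Trp53 the closest were Atp5l (0.917), Sord (0.914) and Id2 (0.914), and for Bbc3 Zzef1 (0.935). For Mdm2 the closest was Wrnip1 (0.878), for Bax Rnf216 (0.857) and for Bcl2l11 Cstf2t (0.834), which were lower.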

How the data were processed

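Brain RNA of 12 mice (4 sham, 4 vehicle and 4 lactate) was grouped by the sample labels. The authors amplified full-length cDNA for 14 PCR cycles, sequenced it as nanopore reads, kept reads of at least 500 bp and a mean quality of 7, mapped them with minimap2 and polished isoforms with pinfish. The reads thus give long transcripts, and short RNAs and PCR duplicates can bias levels. The build is GRCm38 per the submitters' processing notes, which name DESeq 1.10.1. How reads were assigned to genes is not given in the sources used here. The deposited counts are whole reads per gene without normalization. The CPM values were deposited by the authors and equal each count divided by the total of its mouse. The authors' columns of fold changes and P values were not used.

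Counts of 31208 genes (4 lines without a gene were left out) were compared by the two-sided quasi-likelihood test of edgeR 4.0.16 under R 4.3.3. Each fit held the 8 mice of 2 groups, TMM factors and the genes that reached 1 CPM in 4 or more of them, and P values were adjusted by Benjamini and Hochberg's method over every gene of the fit. Errors are SE for log2 fold changes and SD for CPM. DESeq2 1.42.0, limma 3.58.1 voom, the exact test of edgeR, other normalizations and filters, 1 fit of 12 mice, a replicate block and leaving out each mouse were alternatives. In a test on simulated data, 47 of 96 genes changed 2-fold were recovered with vehicle against sham, 74 of 95 with lactate against sham and 41 of 94 with lactate against vehicle, and of those changed 4-fold 92 of 94, 96 of 97 and 95 of 95. The 9 genes and the lists were chosen with earlier results of these data known. The genes named are all 9 genes, at most 3 called genes of each list for each direction and comparison (Sesn1, Cdkn1b and Btg2 were added after their values were seen), and the 3 genes most like each gene, of which some are printed. Gene positions are those of GENCODE M21, and figures were drawn with matplotlib 3.10.9.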

Additional observations from a re-analysis of the deposited data

Results flagged for a closer look

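In 27 groups of 4 mice (9 genes in 3 groups), 3 values lay so far from the others of their group that the gap passed Dixon's 95% critical value, and all 3 came from lactate mouse 2. Its level of Cdkn1a was 167.7 CPM, where the other lactate mice had 72.6 to 88.3 CPM. Its level of Mdm2 was 14.13 CPM, where the others had 9.36 to 10.01 CPM, and its level of Mcl1 was 30.78 CPM, where the others had 18.9 to 19.9 CPM. Chance alone passes this limit in about 1 in 20 groups. The 3 genes come from the same library, so these are not independent.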

How the results depend on the processing

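The number of the 9 genes called was kept within 1.5 times in all but 1 of the alternatives. At an unadjusted P value below 0.05 and a fold change of at least 1.5, 2 genes instead of 1 were called with vehicle against sham. Leaving out 1 mouse gave 1 gene with vehicle against sham, 2 to 3 with lactate against sham and 0 with lactate against vehicle. Of 513 single-gene alternatives, 482 kept their direction and their side of the threshold, 9 lost a call, 2 gained one and 20 changed sign, 19 of them in lactate against vehicle. The mouse numbers do not pair the mice, which are different animals: correlations of same-numbered mice ran from -0.17 to 0.176. With a replicate block the number of genes called did not change, and the log2 fold changes of lactate against vehicle turned to -0.03335 for Cdkn1a and -0.004916 for Bax. For Cdkn1a the same comparison gave -0.04952 in limma voom and -0.02861 with no filter, for Bax -0.01884 with no filter, and for Pmaip1 0.01117 with Ensembl genes only. Leaving out 1 mouse, lactate against vehicle ran from -0.01462 to 0.245 for Trp53, -0.2033 to 0.01319 for Mdm2, -0.3504 to 0.1942 for Cdkn1a, -0.07263 to 0.08222 for Bax, -0.1099 to 0.0616 for Pmaip1 and -0.3884 to 0.06082 for Mcl1, and vehicle against sham from -0.05796 to 0.47 for Bcl2l11. The cause of these turns was not tested. The lists without vehicle mouse 1, vehicle mouse 2 or lactate mouse 2 were counted after seeing the data. With fewer than 30 counts a mouse, Bbc3 and Pmaip1 were measured with little precision.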
